A study of Mus musculus with 12 samples.

Results

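Astrocytes are the star-shaped glial cells of the brain, and 9 genes widely used to mark them were followed here across brain and liver. The 9 genes were taken from a list of names. No measured value entered the rule, but the list was chosen with earlier results of these data known. Each gene was represented by every probe set mapped to it on the array. They made up 9 of 17097 genes and 25 of 45141 probe sets. Where a gene had several probe sets, the one with the highest mean over the 12 arrays gave its main value. All 9 genes were among the 13074 genes tested, which had to reach the array's median in at least 3 arrays.

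The tissues came from male BALB/c mice aged 10 weeks and were taken at 0 h, just after death, after 3 h of storage of the body at room temperature, or after 18 h of storage at 4 °C. From each tissue and time, 1 sample was formalin-fixed and paraffin-embedded (FFPE) and 1 was kept in RNAlater and frozen (FF). This gave 12 conditions with 1 array each: FFPE brain, FF brain, FFPE liver and FF liver, each at 3 times. FFPE tissue lay in 10% formalin for 24 h, was stored as paraffin blocks for 7 d and was cut at 10 µm. FFPE RNA was amplified with a NuGEN kit made for FFPE material and FF RNA with a 3' in vitro transcription kit, so preservation and labelling method cannot be told apart. Time after death and storage temperature likewise changed together. How many animals were used, and which brain region was sampled, is not given in the labels. With 1 array per condition, p-values reflect the scatter of arrays and the disagreement of preservations, not the scatter of animals.

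Astrocytes wrap synapses and blood vessels, take up potassium and transmitters, and are joined into networks by gap junctions. GFAP is the intermediate filament protein of their cytoskeleton, AQP4 the water channel of their endfeet, and connexin 43, encoded by Gja1, a gap junction protein. Slc4a4 encodes a sodium bicarbonate cotransporter, S100b a calcium-binding protein, Aldh1l1 a folate enzyme, Ndrg2 a protein of the NDRG family, Fgfr3 a fibroblast growth factor receptor, and Sox9 a transcription factor. Several of these genes are also used outside the brain, and Aldh1l1 and Ndrg2 are known to be expressed in liver.

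Promoter sequence is shown for Gja1, S100b and Aldh1l1, the 3 genes with the widest gap between brain and liver in FF arrays, as context for which side of the tissue comparison each fell on. The 250 bases before the RefSeq start are given 5′ to 3′ on the + strand of GRCm38.p6, at chr10:56377050-56377299 for Gja1, chr10:76253586-76253835 for S100b and chr6:90550543-90550792 for Aldh1l1. Capitals mark matches, on either strand, to TATAAA, to CCAAT or to the AP-1 motif TGACTCA.
Gja1: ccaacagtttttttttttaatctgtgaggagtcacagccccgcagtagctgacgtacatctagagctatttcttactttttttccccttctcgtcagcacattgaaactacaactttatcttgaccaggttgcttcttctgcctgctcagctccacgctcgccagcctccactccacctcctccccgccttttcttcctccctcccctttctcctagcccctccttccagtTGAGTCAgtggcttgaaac
S100b: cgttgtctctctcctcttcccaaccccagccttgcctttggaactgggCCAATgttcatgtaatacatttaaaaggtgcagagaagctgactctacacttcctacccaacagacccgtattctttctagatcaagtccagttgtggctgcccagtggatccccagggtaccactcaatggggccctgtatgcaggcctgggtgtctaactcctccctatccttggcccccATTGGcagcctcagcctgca
Aldh1l1: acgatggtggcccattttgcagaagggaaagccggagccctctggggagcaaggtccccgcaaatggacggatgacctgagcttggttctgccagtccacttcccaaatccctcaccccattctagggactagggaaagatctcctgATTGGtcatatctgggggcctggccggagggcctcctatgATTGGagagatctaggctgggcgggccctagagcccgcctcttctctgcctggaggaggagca
The Gja1 window held 1 AP-1 match, 19 bases before the start, a motif found in 4.46% of 32851 windows of the same length. S100b had CCAAT matches 202 and 20 bases before its start, and Aldh1l1 had them 103 and 63 bases before its start. CCAAT occurred in 33.8% of all windows and TATAAA in 12.4%. S100b, higher in brain, and Aldh1l1, higher in liver, thus both held CCAAT letters. No matches overlapped, and they describe the windows only.

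The tissue labels could be read against marker lists. All 10 tested neuron genes and 9 of 10 tested oligodendrocyte genes were higher in brain than in liver in FFPE and in FF arrays, and all 15 tested hepatocyte genes were lower in brain in both. The FF brain array at 0 h stood apart in its liver transcripts, with a mean log2 level of 6.83 over the hepatocyte genes against 4.83 at 3 h and 4.71 at 18 h. In FFPE brain that mean was 5.17, 4.54 and 4.54 at the 3 times, against 12.11 to 12.29 in the liver arrays. Without the FF brain array of 0 h, the counts of the 9 genes past the test given next were 6 between the tissues in FF, 6 between preservations in brain and 5 for the difference of preservations between tissues, against 6, 7 and 4 with it, and none passed at either time in brain. In these bulk samples fewer cells of a type and less RNA per cell cannot be told apart.

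**Figure D1:**
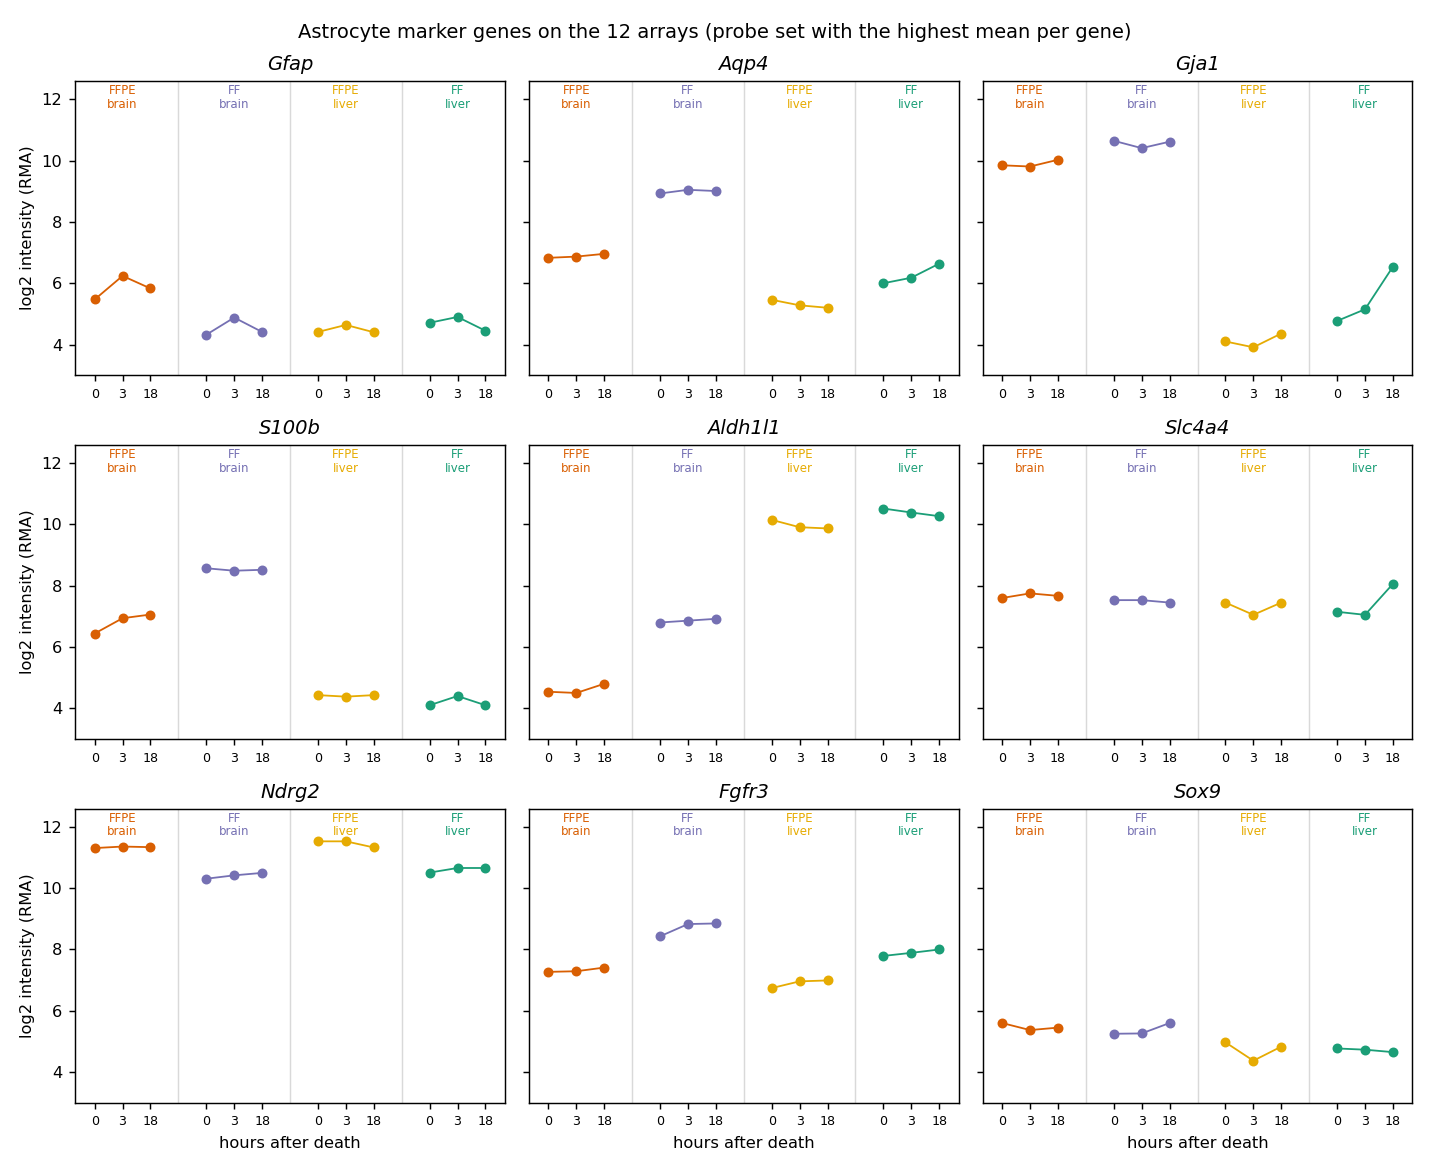
Log2 intensity (vertical axis) of the 9 astrocyte marker genes at 0, 3 and 18 h after death (horizontal axis) in FFPE brain, FF brain, FFPE liver and FF liver; each point is 1 array and lines join the times. Gja1, S100b and Aqp4 lie higher in brain than in liver, Aldh1l1 lies higher in liver, and Ndrg2 and Slc4a4 lie at nearly the same height in both tissues.

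The first comparison was that of the tissues: which astrocyte markers stood higher in brain than in liver. In FF arrays 5 of the 9 genes were higher in brain, 1 was lower and 3 did not pass the test, while 74.1% of all genes tested differed, 37.5% higher and 36.5% lower in brain. In FFPE arrays 6 were higher, 1 was lower and 2 did not pass, while 63.5% of all genes differed, 29% higher and 34.5% lower in brain. The median difference, brain minus liver, was 0.65 in FF and 0.75 in FFPE on the log2 scale, beside -0.04 over all genes in both.

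Gja1 had the widest gap toward brain. Its main probe set read 9.85, 9.81 and 10.03 in FFPE brain and 10.65, 10.41 and 10.62 in FF brain at 0, 3 and 18 h, against 4.10, 3.91 and 4.36 in FFPE liver and 4.77, 5.15 and 6.54 in FF liver. Every brain array was higher than every liver array, with no overlap. Brain exceeded liver by 5.77 ± 0.21 log2 units in FFPE (limma, SE, adjusted p = 2.7e-11) and by 5.07 ± 0.21 in FF (limma, adjusted p = 7.5e-11). No fold is given, since the FFPE liver values lay under their array medians of 4.8 to 4.85 and 2 of the 3 FF liver values lay under the highest nonspecific control probe set of their array, at 5.63 and 5.30. The name of this probe set ends in _x_at, a class that can match other sequences too. Of its other 4 probe sets, 3 gave brain above liver by 2.85 to 6.02 in FFPE and by 2.98 to 5.25 in FF, all past the test. The remaining one, 1415801_PM_at, read 5.11 to 5.19 in FFPE brain against 4.25 to 4.49 in FFPE liver, a difference of 0.79 (limma over all probe sets, adjusted p = 0.00015), and in FF its difference of -0.13 did not pass.

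S100b, whose protein is released by astrocytes and also made by some other glia, was next. It read 6.44, 6.94 and 7.06 in FFPE brain and 8.57, 8.49 and 8.52 in FF brain, against 4.43, 4.38 and 4.43 in FFPE liver and 4.10, 4.40 and 4.10 in FF liver. Brain and liver values did not overlap, while FFPE liver overlapped FF liver. All liver values lay under their array medians of 4.65 to 4.85. The difference was 2.40 ± 0.14 in FFPE (limma, adjusted p = 5.5e-09) and 4.33 ± 0.14 in FF (limma, adjusted p = 8.4e-12). The second probe set, 1434342_PM_at, gave 2.41 in FFPE and 5.31 in FF.

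Aqp4 read 6.83, 6.87 and 6.96 in FFPE brain and 8.93, 9.05 and 9.01 in FF brain, against 5.46, 5.28 and 5.20 in FFPE liver and 6.0, 6.18 and 6.64 in FF liver. The order of the group means was FF brain, FFPE brain, FF liver and FFPE liver, at 9.0, 6.89, 6.27 and 5.31, and neighbours in this order did not overlap. Brain exceeded liver by 1.57 ± 0.15 in FFPE (limma, adjusted p = 7.2e-07) and by 2.72 ± 0.15 in FF (limma, adjusted p = 1.7e-09). Probe set 1425382_PM_a_at, which covers alternative transcripts, gave 0.48 in FFPE and 2.17 in FF, both past the test. The third, 1447745_PM_at, stayed between 4.58 and 5.12 on every array.

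Fgfr3 and Sox9 were higher in brain by less. Fgfr3 read 7.27, 7.29 and 7.41 in FFPE brain and 8.43, 8.83 and 8.85 in FF brain, against 6.74, 6.96 and 6.99 in FFPE liver and 7.79, 7.89 and 8.0 in FF liver. FF liver thus lay above FFPE brain for this receptor as deposited. Its tissue difference was 0.43 ± 0.12 in FFPE (limma, adjusted p = 0.006) and 0.81 ± 0.12 in FF (limma, adjusted p = 3.2e-05). After quantile normalization the tissue differences were 0.635 in FFPE and 0.674 in FF, and FFPE minus FF was -0.524 in brain and -0.485 in liver, so that FFPE brain then lay above FF liver. Without the FFPE brain array of 0 h the FFPE tissue difference was 0.32 with adjusted p = 0.075 (limma). The second Fgfr3 probe set, 1425796_PM_a_at, read 3.53 to 5.01 on all arrays and was too low to be tested. Sox9 read 5.60, 5.37 and 5.45 in FFPE brain and 5.25, 5.26 and 5.60 in FF brain, against 4.97, 4.37 and 4.83 in FFPE liver and 4.77, 4.73 and 4.65 in FF liver. Brain exceeded liver by 0.75 ± 0.14 and 0.65 ± 0.14 in FFPE and FF (limma, adjusted p = 0.00042 and 0.001), and probe set 1451538_PM_at gave 0.81 and 1.02.

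Aldh1l1 ran the other way. The gene, a common astrocyte label in reporter mice, read 4.54, 4.5 and 4.8 in FFPE brain and 6.80, 6.86 and 6.92 in FF brain, against 10.15, 9.91 and 9.87 in FFPE liver and 10.52, 10.39 and 10.27 in FF liver. No brain value came near a liver value. The difference, brain minus liver, was -5.36 ± 0.11 in FFPE (limma, adjusted p = 1.7e-13) and -3.53 ± 0.11 in FF (limma, adjusted p = 4.8e-12). The FFPE brain values lay under their array medians of 4.87 to 4.88. Its second probe set, 1424401_PM_at, was also lower in brain, by 0.41 in FFPE and 1.75 in FF. Within FF brain the level of Aldh1l1 differed by at most 0.12 between the array of 0 h, where hepatocyte genes were high, and the other times.

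The main probe sets of Ndrg2 and Slc4a4 and, in FF arrays, of Gfap had tissue differences that did not pass the test. Ndrg2 read 11.31, 11.36 and 11.34 in FFPE brain and 10.31, 10.42 and 10.50 in FF brain, against 11.53, 11.53 and 11.33 in FFPE liver and 10.51, 10.66 and 10.66 in FF liver. Its difference was -0.13 ± 0.12 in FFPE and -0.20 ± 0.12 in FF (limma, adjusted p = 0.36 and 0.13). Slc4a4 read 7.60, 7.75 and 7.67 in FFPE brain and 7.53, 7.53 and 7.45 in FF brain, against 7.45, 7.05 and 7.45 in FFPE liver and 7.15, 7.05 and 8.06 in FF liver. Its difference was 0.36 ± 0.15 in FFPE and 0.08 ± 0.15 in FF (limma, adjusted p = 0.057 and 0.63). After quantile normalization its FFPE difference was 0.59 and passed (limma, adjusted p = 0.0015). A second Slc4a4 probe set, 1421225_PM_a_at, was lower in brain by 0.97 in FFPE (limma, adjusted p = 0.00036), and another, 1452071_PM_at, was higher in brain by 1.00 in FF (limma, adjusted p = 5.1e-05), so the transporter's tissue order depended on the probe set.

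**Figure D2:**
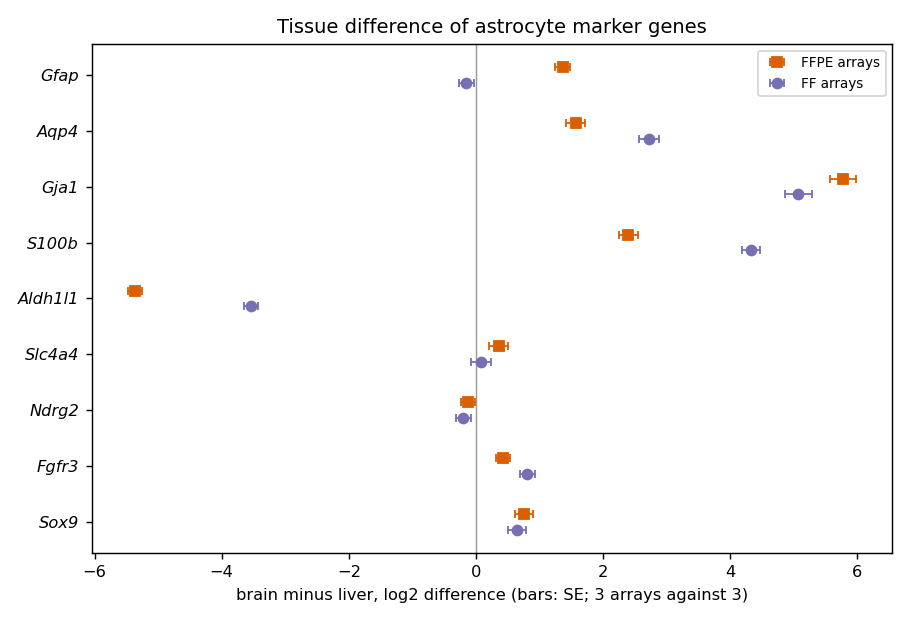
Difference between brain and liver in log2 units (horizontal axis) for each of the 9 genes in FFPE and FF arrays, with bars of 1 SE, from 3 arrays against 3. Gja1 reaches 5.77 and 5.07 toward brain, Aldh1l1 reaches -5.36 and -3.53, and Gfap is at 1.36 in FFPE but at -0.15 in FF for this probe set.

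Gfap, the classical astrocyte marker, was higher in brain than in liver in FFPE with all 3 of its probe sets, and in FF with all but its main one. Its main probe set, 1426508_PM_at, read 5.47, 6.24 and 5.83 in FFPE brain and 4.32, 4.88 and 4.41 in FF brain, against 4.41, 4.64 and 4.40 in FFPE liver and 4.71, 4.90 and 4.45 in FF liver. FFPE brain stood above the other groups, which overlapped each other and lay around the array medians of 4.65 to 4.88. Brain exceeded liver by 1.36 ± 0.12 in FFPE (limma, adjusted p = 2.1e-07), while in FF the difference was -0.15 ± 0.12 (limma, adjusted p = 0.26). Probe set 1440142_PM_s_at read 3.81, 4.17 and 3.71 in FFPE brain and 5.03, 6.10 and 5.54 in FF brain, against 3.33, 3.28 and 3.37 in FFPE liver and 3.25, 3.39 and 3.31 in FF liver. This one placed brain above liver by 0.57 ± 0.14 in FFPE and by 2.24 ± 0.14 in FF (limma over all probe sets, adjusted p = 0.0033 and 8.3e-09). The third, 1426509_PM_s_at, read 4.54, 5.55 and 5.0 in FFPE brain and 4.66, 5.19 and 4.75 in FF brain, against 4.08, 3.93 and 3.95 in FFPE liver and 3.97, 3.96 and 3.85 in FF liver. Its difference was 1.04 in FFPE and 0.94 in FF (limma over all probe sets, adjusted p = 6.4e-06 and 1.4e-05). Brain thus exceeded liver with 3 of 3 Gfap probe sets in FFPE and with 2 of 3 in FF, and the exception in FF was the probe set with the highest mean. The ending _s_at marks probe sets that match several transcripts.

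**Figure D3:**
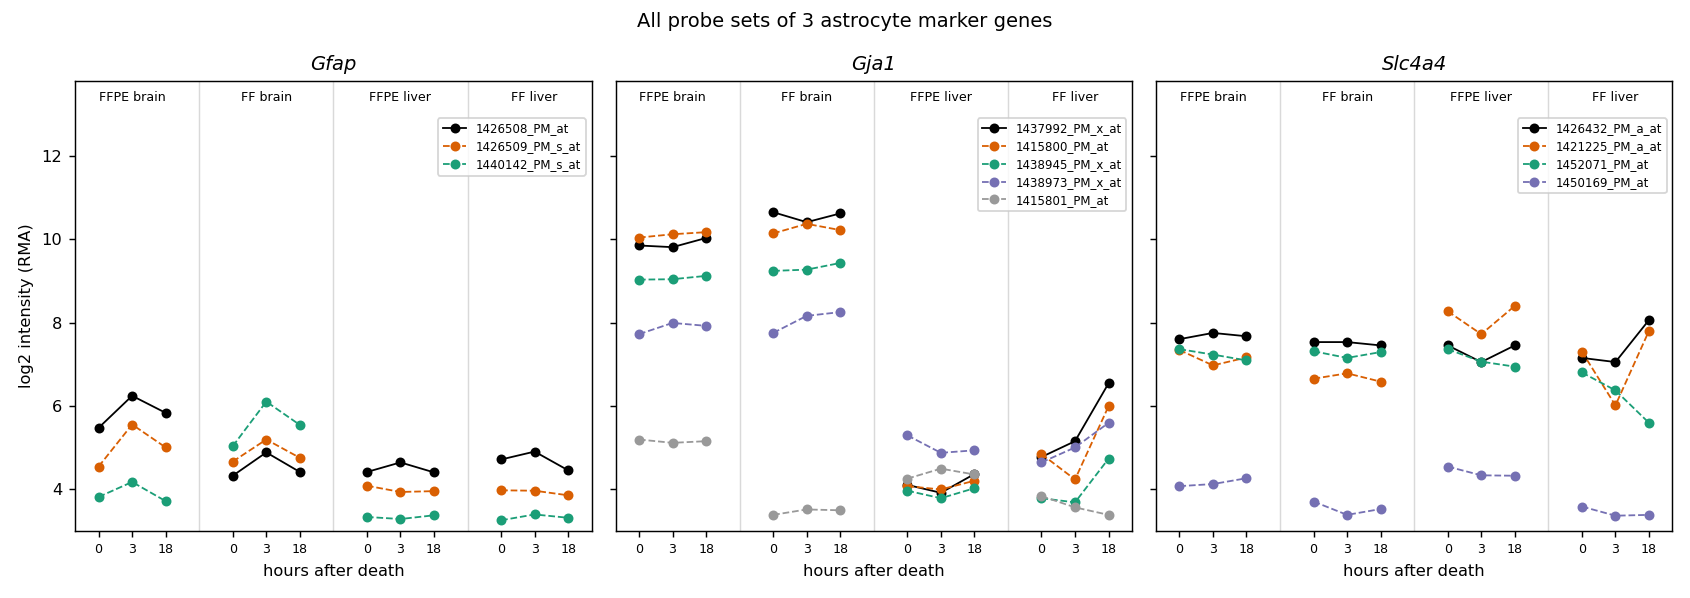
Log2 intensity (vertical axis) of every probe set of Gfap, Gja1 and Slc4a4 at 0, 3 and 18 h after death (horizontal axis) in the 4 groups; the solid black line is the main probe set and each point is 1 array. The Gfap probe sets change places between FFPE and FF brain, all 3 stand higher at 3 h than at 0 h in brain, and of the 4 Slc4a4 probe sets, 2 stand lower and 2 higher at 18 h than at 0 h in FF liver.

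The markers were set against a wider list of astrocyte genes, of which 28 were tested. In FF arrays 21 of the 28 were higher in brain and 4 lower, beside 37.5% and 36.5% of all genes. Their median difference was 3.17, beside -0.04 over all genes. In FFPE arrays 21 were higher and 7 lower, beside 29% and 34.5% of all genes. The median there was 1.56, beside -0.04 over all genes. The widest FF differences were those of Sparcl1, a secreted matrix protein (5.66), Aldoc, a brain aldolase (5.44), Mlc1, a membrane protein of astrocyte endfeet (4.38), and Htra1, a secreted protease (4.28). The 4 genes lower in brain in FF were Agt, which encodes angiotensinogen (-3.88), Cbs, an enzyme of sulfur amino acid metabolism (-3.61), Apoe, an apolipoprotein (-1.23), and Fgfr2, a receptor related to Fgfr3 (-0.32). Agt and Apoe are well known as genes of hepatocytes. These 4 were named after their values were seen.

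The second comparison was between preservations. In brain 7 of the 9 genes differed between FFPE and FF, 2 higher and 5 lower in FFPE. Of all genes 81.8% differed, 28.4% higher and 53.4% lower, so a difference was the usual outcome. In liver 5 of the 9 differed, 1 higher and 4 lower, while 71.2% of all genes did, 27.8% higher and 43.5% lower. The scale itself moved: the median of all genes, FFPE minus FF, was -0.42 in brain and -0.17 in liver as deposited, and -0.12 and -0.09 after quantile normalization. Labelling kit and preservation changed together, so 3' to 5' control distances, often read as signs of RNA integrity, cannot be read so between FFPE and FF. These distances also moved, up in FFPE for Gapdh and down for Actb. In brain that of Gapdh was 1.22 to 1.25 in FFPE against -0.02 to 0.05 in FF, and that of Actb was -0.12 to 0.05 in FFPE against 1.21 to 1.32 in FF. In liver that of Gapdh was 1.04 to 1.77 in FFPE against 0.03 to 1.14 in FF, and that of Actb was -0.18 to -0.01 in FFPE against 1.09 to 2.00 in FF. Their part in the marker differences was not tested. The median of the 9 genes was -0.66 in brain and -0.20 in liver as deposited.

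In brain the enzyme Aldh1l1 fell by 2.25 ± 0.11 log2 units in FFPE relative to FF, the water channel Aqp4 fell by 2.11 ± 0.15, S100b fell by 1.71 ± 0.14 and Fgfr3 fell by 1.38 ± 0.12 (limma, adjusted p from 1.5e-09 to 1.6e-07). The main probe set of each of these 4 was lower at all 3 times. After quantile normalization the differences were smaller, at -1.97 for Aldh1l1, -1.345 for Aqp4, -0.90 for S100b and -0.52 for Fgfr3, all past the test (limma, adjusted p from 2.95e-08 to 0.00191). Gja1 was lower by less, at -0.66 ± 0.21 (limma, adjusted p = 0.01), and after quantile normalization its difference was -0.20 with adjusted p = 0.38. Without the FF or without the FFPE brain array of 0 h it was -0.60 with adjusted p = 0.066, and 3 of its other probe sets gave -0.13 to -0.25, none past the test. The remaining one, 1415801_PM_at, was higher in FFPE brain by 1.69 (limma over all probe sets, adjusted p = 7.5e-08). Gfap and Ndrg2 were higher in FFPE, by 1.31 ± 0.12 and 0.93 ± 0.12 (limma, adjusted p = 2.5e-07 and 6.7e-06). The Gfap value held for its main probe set only: 1426509_PM_s_at gave 0.16 ± 0.12 and 1440142_PM_s_at fell by 1.66 ± 0.14 (limma over all probe sets, adjusted p = 0.23 and 1.8e-07). Slc4a4 and Sox9 had differences of 0.17 and 0.10 that did not pass the test, but Slc4a4 reached 1.12 and passed after quantile normalization, and its probe set 1421225_PM_a_at gave 0.49 (limma over all probe sets, adjusted p = 0.024). For the 4 genes named first, S100b 1434342_PM_at gave -2.91 and Aqp4 1425382_PM_a_at -1.10, both past the test. Aqp4 1447745_PM_at (0.23) and Aldh1l1 1424401_PM_at (-0.24) did not pass (limma over all probe sets, adjusted p = 0.094 and 0.064). Fgfr3 1425796_PM_a_at, too low to be tested, gave 0.94.

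In liver Gja1 fell by 1.36 ± 0.21 in FFPE, Fgfr3 fell by 1.00 ± 0.12, Aqp4 fell by 0.96 ± 0.15 and Aldh1l1 fell by 0.42 ± 0.11, while Ndrg2 was higher by 0.85 ± 0.12 (limma, adjusted p from 7.2e-06 to 0.0045). Ndrg2 was thus higher in FFPE than in FF in both tissues, at every time, with 11.3 to 11.5 in FFPE arrays and 10.3 to 10.7 in FF arrays. Gfap, S100b, Slc4a4 and Sox9 had differences between -0.20 and 0.21 in liver that did not pass. After quantile normalization Gfap (-0.37) and Slc4a4 (0.34) passed in liver (limma, adjusted p = 0.022 and 0.035). The other tested Slc4a4 probe sets were higher in FFPE liver, 1421225_PM_a_at by 1.09 and 1452071_PM_at by 0.87 (limma over all probe sets, adjusted p = 0.00013 and 0.0002). The main Gja1 probe set lay under the array medians in FFPE liver, and its single pairs ran from -2.18 to -0.67. For Gja1, 1415800_PM_at was lower in FFPE liver by 0.93, 1415801_PM_at was higher by 0.77, and the other 2 did not pass. In Aqp4 the second probe set ran against the main one in liver, with FFPE above FF by 0.59 (limma over all probe sets, adjusted p = 0.00047). The second Aldh1l1 probe set fell by 1.58 (limma over all probe sets, adjusted p = 8.2e-08). That of Fgfr3, too low to be tested, was higher in FFPE liver by 1.11.

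**Figure D4:**
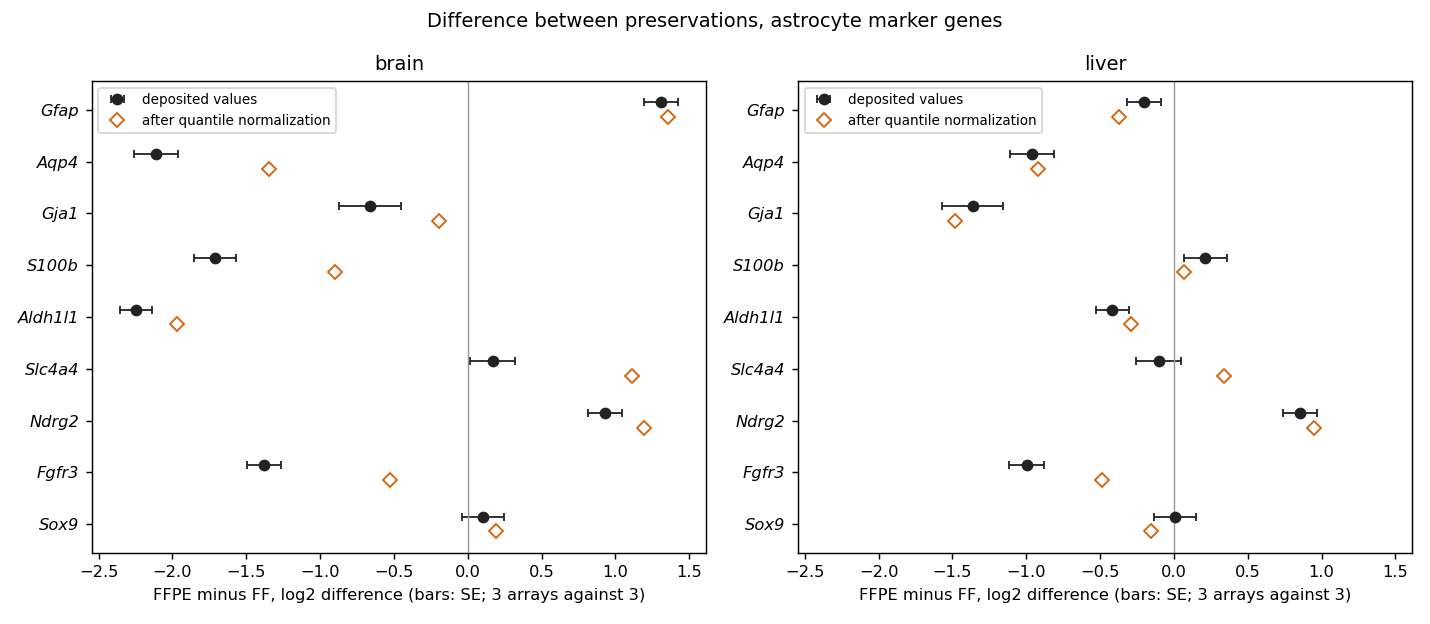
FFPE minus FF in log2 units (horizontal axis) for each of the 9 genes in brain (left) and liver (right), from 3 arrays against 3; filled points with bars of 1 SE are the deposited values and open diamonds the quantile-normalized ones. In brain Aldh1l1, Aqp4, S100b and Fgfr3 lie left of 0 on both scales, Gfap and Ndrg2 lie right of 0 on both, and Slc4a4 moves to 1.12 after normalization.

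For 4 of the 9 genes the gap between preservations differed between the tissues, 1 with a positive and 3 with a negative interaction. Of all genes 54.9% had such an interaction, 18.4% positive and 36.4% negative. The gap in brain minus that in liver was 1.51 ± 0.16 for Gfap, -1.15 ± 0.21 for Aqp4, -1.93 ± 0.20 for S100b and -1.83 ± 0.16 for Aldh1l1 (limma interaction, adjusted p from 1.3e-06 to 0.00063). For Aqp4 and S100b the gap between brain and liver was therefore narrower in FFPE, and for Aldh1l1 it was wider. The S100b liver values lay under their array medians in both preservations, so a fall there could hardly show. After quantile normalization the genes past the test changed: the Aqp4 interaction was -0.425 and did not pass (limma, adjusted p = 0.12), Gja1 (1.29) and Slc4a4 (0.78) passed (limma, adjusted p = 0.0034 and 0.0048), and that of S100b was smaller, at -0.967. The second S100b probe set gave -2.90, past the test. The second probe set of Aldh1l1 gave 1.35 and so had the opposite sign (limma over all probe sets, adjusted p = 1.6e-05). It was under the array median on all brain and FFPE liver arrays and above it in FF liver only.

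The wider astrocyte list moved mostly one way in brain: 22 of 28 genes were lower and 3 higher in FFPE, with a median of -1.17. Over all genes 53.4% were lower and 28.4% higher in FFPE brain, with a median of -0.42. The 4 widest differences were those of Slc1a2, a glutamate transporter (3.36), Apoe (-2.92), F3, the coagulation tissue factor (-2.82), and Htra1 (-2.60). In liver 9 of the astrocyte genes were higher and 7 lower in FFPE, with a median of 0.09, beside -0.17 over all genes. Of 10 neuron genes 6 were lower and 3 higher in FFPE brain, near the shares over all genes, with a median of -0.79. The fall was not particular to astrocyte genes. All 8 tested microglia genes were lower, with a median of -1.19, and all 3 oligodendrocyte precursor genes, with a median of -2.88. Of 6 striatum genes 5 were lower and 1 higher, with a median of -1.325. Of 10 oligodendrocyte genes 6 were lower and 1 higher, with a median of -0.64.

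The third comparison was between times after death, estimated in each tissue from what FFPE and FF arrays shared, with 2 arrays per time. In brain none of the 9 genes passed the test at 3 h against 0 h, where 0.0765% of all genes did, and 1 gene, Gfap, had an unadjusted p under 0.05. None passed at 18 h, where 0.0306% of all genes did, and none had an unadjusted p under 0.05 (limma). The median change of the 9 genes was 0.08 at 3 h and 0.11 at 18 h, beside 0.02 over all genes at both times.

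Gfap was the gene with the largest difference at 3 h in brain. Its main probe set stood at 6.24 at 3 h against 5.47 at 0 h in FFPE brain, and at 4.88 at 3 h against 4.32 at 0 h in FF brain. Both preservations had the higher value at 3 h, and so did all 3 probe sets, with differences of 0.67 ± 0.14, 0.77 ± 0.15 and 0.72 ± 0.17 (limma over all probe sets, adjusted p = 0.22, 0.16 and 0.34). At 18 h the main probe set differed from 0 h by 0.23 ± 0.14. None of these values passed the test across all genes.

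Markers of brain regions and other cell types differed on the same 3 h arrays. Of 7 tested genes marking thalamus, 4 were higher at 3 h, with a median of 1.04, among them Prkcd, a protein kinase C (1.83), and Plekhg1 (1.47). Prkcd read 6.54 at 3 h against 5.20 at 0 h in FFPE brain and 7.40 against 5.08 in FF brain. Of 8 tested genes of choroid plexus and ependyma 1 was higher, Ttr, which encodes transthyretin (5.40), and the median was 0.73. The oligodendrocyte genes had a median of 0.54 with 0 of 10 past the test, and of 6 striatum genes 1 was lower, Tac1 (-1.14), with a median of -0.43. The mean level of the thalamus list was 5.48 at 3 h against 4.93 at 0 h in FFPE brain and 6.60 against 5.58 in FF brain. Their part in the Gfap values was not tested.

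The other 8 markers differed little at 3 h in brain. Their differences lay between -0.14 for Gja1 and 0.21 for S100b and Fgfr3, and the 28 genes of the wider astrocyte list had a median of 0.09 with 0 past the test. A list of genes raised in reactive astrocytes, 11 of them tested, had a median of -0.04 at 3 h and at 18 h with 0 past the test. In brain, Steap4 read 3.45 to 3.62 and Lcn2 3.39 to 3.89, under every array median, and both passed the filter through liver. Vim read 6.81 to 7.91 in brain. The list median therefore shows little for members that were low in brain. These genes were named after their values were seen. S100b stood at 6.94 and 7.06 at 3 h and 18 h against 6.44 at 0 h in FFPE brain, but at 8.49 and 8.52 against 8.57 in FF brain, so the preservations did not share a direction. Fgfr3 stood at 8.83 and 8.85 against 8.43 at 0 h in FF brain and at 7.29 and 7.41 against 7.27 in FFPE brain.

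**Figure D5:**
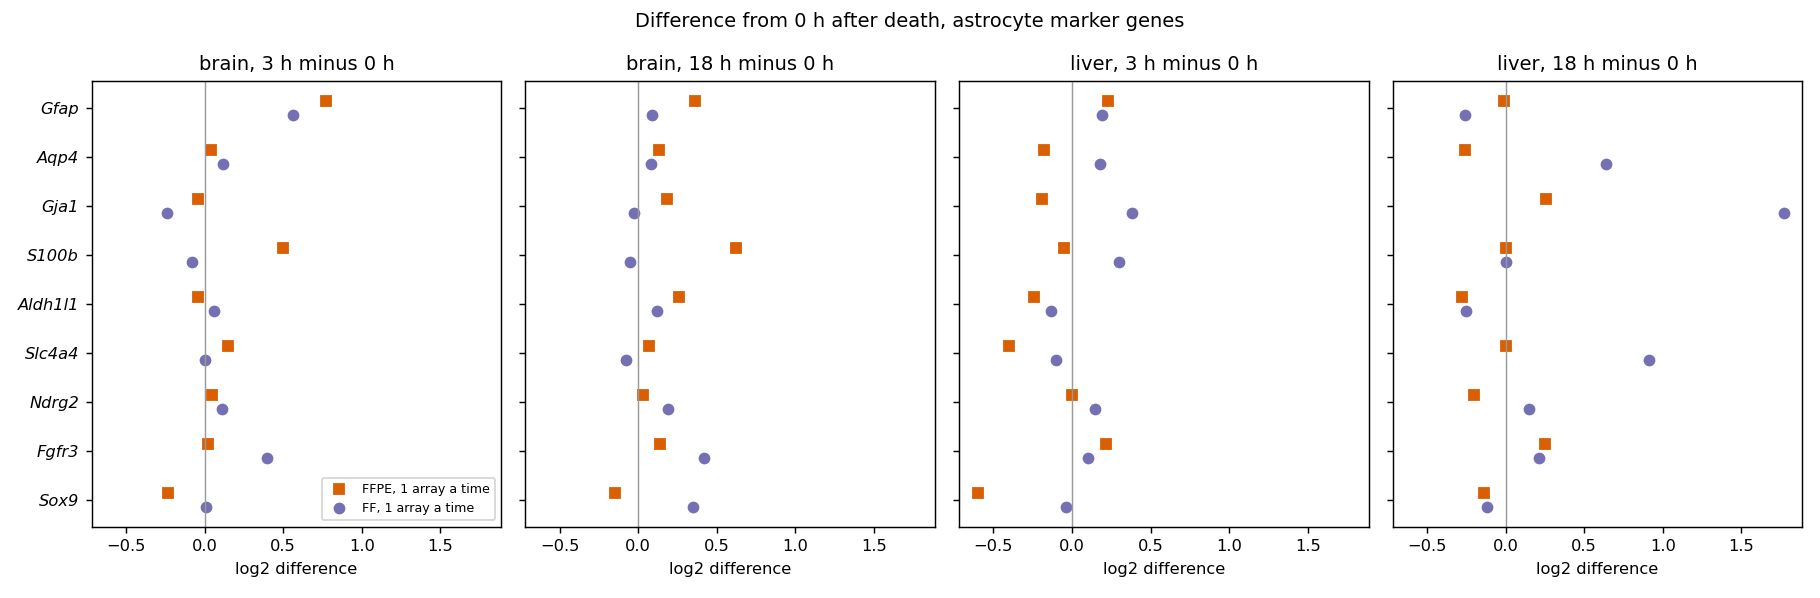
Difference from 0 h in log2 units (horizontal axis) for each of the 9 genes at 3 h and at 18 h in each tissue; squares are FFPE and circles FF, each the difference of 2 single arrays. Gfap lies at 0.77 and 0.56 at 3 h in brain, and Gja1 at 1.77 in FF liver at 18 h is the point farthest from 0.

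In liver none of the 9 genes passed the test at 3 h, where 0.245% of all genes did, and none had an unadjusted p under 0.05 (limma). At 18 h 1 gene passed, Gja1, which was higher, while 14.5% of all genes passed and 3.61% were higher. Gja1 stood at 4.36 at 18 h against 4.10 at 0 h in FFPE liver, both under their array medians, and at 6.54 against 4.77 in FF liver. Most of the shared difference of 1.01 ± 0.26 (limma, adjusted p = 0.019) therefore came from the FF arrays, at 1.77 against 0.26 in FFPE. Over the main probe sets of the 9 genes and the 8 pairs of single arrays, this was the only difference of at least 2-fold. Other probe sets reached 2-fold too. Among them, Gfap 1440142_PM_s_at read 6.10 at 3 h against 5.03 at 0 h in FF brain. Slc4a4 1452071_PM_at read 5.59 at 18 h against 6.80 at 0 h in FF liver. Of all genes, 3.97% differed at least 2-fold in the same FF liver pair, and 4.74% did at 18 h in FFPE liver. At 3 h in liver the share was 0.543% in FFPE and 0.474% in FF. In brain it was 0.184% in FFPE and 0.566% in FF at 3 h, and 0.138% in FFPE and 0.382% in FF at 18 h.

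The Gja1 call rested on few arrays. Without the FF liver array of 0 h its difference was 0.50 with adjusted p = 0.29, and without that of 18 h it was 0.40 with adjusted p = 0.22 (limma). In a fit of the liver arrays alone the adjusted p was 0.078. Probe set 1415800_PM_at read 5.99 at 18 h against 4.84 at 0 h in FF liver, 1438945_PM_x_at read 4.73 against 3.78 and 1438973_PM_x_at read 5.59 against 4.64, so 4 of 5 probe sets were higher in FF liver. In the fit shared with FFPE these 3 gave 0.64, 0.51 and 0.30, none past the test. The change at 18 h in brain minus that in liver was -0.94 ± 0.36 for Gja1 and did not pass (limma interaction, adjusted p = 0.17), as for the other 8 genes, where 4.48% of all genes passed. At 3 h none of the 9 interactions passed, where 0.0153% of all genes did. Of the 9 genes 2 had an unadjusted p under 0.05 in the 18 h interaction and 1 in the 3 h interaction.

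Genes of other liver cells differed at 18 h as well. Of 9 tested genes of hepatic stellate cells, the fibroblast-like cells of the sinusoid, 6 were higher at 18 h than at 0 h, with a median of 0.72. They included Col3a1, a collagen (1.25), Reln, a secreted glycoprotein (1.11), Ecm1, a matrix protein (1.10), and Colec11, a collectin (1.09). The mean of the list was 7.04 at 18 h against 6.45 at 0 h in FFPE liver and 7.63 against 6.84 in FF liver. For Gapdh, the log2 distance of the 3' control probe set above the 5' one, a sign of RNA integrity, was 1.63 at 3 h and 1.77 at 18 h against 1.04 at 0 h in FFPE liver, and 0.82 and 1.14 against 0.03 in FF liver. For Actb it was -0.01 and -0.18 against -0.12 in FFPE liver, and 2.00 and 1.90 against 1.09 in FF liver. Their part in the Gja1 value was not tested.

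Slc4a4 gave opposite values in liver at 18 h. Its main probe set stood at 7.45 at both times in FFPE liver, and at 8.06 at 18 h against 7.15 at 0 h in FF liver, a shared difference of 0.46 ± 0.19 that did not pass (limma, adjusted p = 0.13). Probe set 1421225_PM_a_at gave 0.32. Probe set 1452071_PM_at read 6.94 at 18 h against 7.36 at 0 h in FFPE liver and 5.59 against 6.80 in FF liver, and fell by 0.82 ± 0.18 (limma over all probe sets, adjusted p = 0.011). Aqp4 stood at 6.64 at 18 h against 6.0 at 0 h in FF liver but at 5.20 against 5.46 in FFPE liver. In the wider astrocyte list 1 gene was higher in liver at 18 h, Mfge8 (0.56), and 4 were lower, Slc1a2 (-1.54), Fabp7 (-0.72), Aldoc (-0.57) and Plpp3 (-0.50), named after their values were seen.

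The genes whose levels ran most like each marker over the 12 arrays described the same patterns. Pearson's r was 0.999 between S100b and both Sez6l2 and Pcsk1n, and 0.997 between Gja1 and Dlg3. Aqp4 ran with Rap1gap, Ap1s2 and Nin at 0.994, Aldh1l1 with P4hb at 0.999 and with Mtarc2 and Rnase4 at 0.998, Ndrg2 with Lzic at 0.991, Fgfr3 with Gapvd1 at 0.99 and Sox9 with Smarcd1 at 0.944. Gfap ran with Cd4 at 0.944, Speer4b at 0.938 and Sars2 at 0.933. The lowest of these likenesses was that of Slc4a4, with Carm1 at 0.887. Among the markers themselves r was 0.93 between Gja1 and S100b and 0.915 between Aqp4 and S100b, but -0.875 between Aldh1l1 and Gja1, 0.224 between Gfap and S100b and -0.914 between Fgfr3 and Ndrg2. The 12 points share tissue and preservation, so these values describe the group pattern and carry no test.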

How the data were processed

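Per the submitters' processing notes, the authors used RMA and Affymetrix Expression Console, and each array's deposited column holds a log2 value for every probe set. Whether all arrays went through RMA together is not given in the sources used here. Of 45141 probe sets, 104 were controls, 28898 mapped to a single gene, 551 to several genes and 15588 had no gene in the platform annotation. From the deposited log2 values, limma 3.58.1 in R 4.3.3 fitted 8 coefficients to all 12 arrays: 4 means of tissue and preservation and the 3 h and 18 h change in each tissue. This left 4 residual degrees of freedom. The 11 comparisons were two-sided, with Benjamini-Hochberg adjustment over the 13074 genes tested and a threshold of 0.05. Values marked "over all probe sets" come from the same model fitted to every probe set on its own. Symbols and promoters are from RefSeq (GRCm38.p6); 7 of the 9 genes had a promoter entry, Aqp4 and Sox9 none. The number of arrays limits the precision. The model was tested on simulated data. The 9 genes and all gene lists were chosen with earlier results of these data known. All 9 genes are named, with the 3 genes most like each by Pearson's r and up to 4 genes of each list, by size of difference among those past the threshold; genes outside this are said to be so. Alternatives covered the probe set summary, scaling, filter, arrays fitted, empirical Bayes settings and leaving out each array.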

Additional observations from a re-analysis of the deposited data

Results flagged for a closer look

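For 4 of the 9 genes the difference between FFPE and FF was not the same in brain and in liver, by the interaction term of the limma model. For Gfap, FFPE minus FF was 1.31 in brain and -0.20 in liver, and the gap in brain minus that in liver was 1.513 (adjusted p = 8.8e-06). With 1440142_PM_s_at the same Gfap quantity was -1.67 and with 1426509_PM_s_at it was 0.10. For Aqp4 the values were -2.11 in brain and -0.96 in liver, and their gap was -1.15 (adjusted p = 0.00063). After quantile normalization the Aqp4 gap was -0.425 and did not pass (limma, adjusted p = 0.12). For S100b the values were -1.71 in brain and 0.21 in liver, and their gap was -1.927 (adjusted p = 7.2e-06). All S100b liver values lay under their array medians. For Aldh1l1 the values were -2.25 in brain and -0.42 in liver, and their gap was -1.83 (adjusted p = 1.3e-06). With 1424401_PM_at the Aldh1l1 gap had the opposite sign, at 1.35 (limma over all probe sets, adjusted p = 1.6e-05). Of all genes tested, 54.9% had such a gap past the threshold.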

How the results depend on the processing

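Counts of called genes among the 9 stayed within 1.5 times their value, or at 0, under every alternative and every array left out for brain minus liver in FFPE and in FF, FFPE minus FF in brain, its difference between tissues, each 3 h comparison and the 18 h comparison in brain. FFPE minus FF in liver counted 5 genes, and 3 when probe sets were averaged. Liver at 18 h counted 1 gene. It was 0 when probe sets were averaged, 0 with the liver arrays alone and 2 after quantile normalization (Gja1 and Slc4a4), and leaving out single arrays gave 0 to 2. The count was 0 without the FF liver array of 0 h or of 18 h, and 2 without the FFPE liver array of 0 h or of 18 h. The 18 h interaction counted 0, and 0 to 2 with single arrays left out: 1 without FFPE liver at 0 h and 2 without FFPE liver at 18 h. Averaging a gene's probe sets turned the sign of FFPE minus FF for Gfap in brain (-0.062), Gja1 in brain (0.093) and Fgfr3 in liver (0.057) and of the Gfap interaction (-0.018), none past the test. With that average, 5 further calls were lost: Fgfr3 between tissues in FFPE (0.09), Aqp4 and Gja1 between preservations in liver (-0.10 and -0.34), the Aldh1l1 interaction (-0.24) and Gja1 in liver at 18 h (0.46). The cause of these changes was not tested.

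Over all genes, the share of higher among called genes was 34.7% in FFPE minus FF in brain and 44.5% after quantile normalization, and 33.6% and 47.6% for its difference between tissues. It was 24.9% and 36.2% in liver at 18 h, and 88.4% and 75.4% in the 18 h interaction. Testing every probe set on its own gave 15073 probe sets with a tissue difference in FF, a unit unlike that of the 9685 genes. Time counts moved with the setting: 2 to 39 calls at 3 h and 2 to 31 at 18 h in brain, 0 to 83 at 3 h and 994 to 2947 at 18 h in liver. For the interactions the counts ran from 1 to 24 at 3 h and from 48 to 1152 at 18 h. Fits of 1 tissue or preservation alone could not give the 3 interactions. The model compared FFPE with FF at matched times, and no replicate numbers were given that could add a block. Low values near the array median, as for Gfap, limit what a difference can show.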

Other observations

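Slc1a3, the glutamate transporter GLAST and a common astrocyte marker, read 3.75 to 3.90 in FFPE brain and 3.91 to 4.11 in FF brain, against 3.47 to 3.77 in FFPE liver and 3.90 to 4.19 in FF liver. It was under the array median on every array and was not tested. These values are those of the Slc1a3 probe set with the highest mean. Probe sets mapped to several genes or to none were left out, so the values do not show that Slc1a3 was absent from brain. Slc1a2, the transporter GLT-1, read 10.14 to 10.37 in FFPE brain and 6.84 to 7.00 in FF brain, a difference of 3.36 (limma, adjusted p = 7.1e-10), while 22 of the 28 tested genes of its list were lower in FFPE brain. Both were singled out after their values were seen.

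Sparcl1 read 7.01 at 18 h against 5.38 at 0 h in FF liver and 5.41 against 5.38 in FFPE liver. It thus differed between 18 h and 0 h in the FF pair and hardly in the FFPE pair, like Gja1, and its shared change of 0.83 ± 0.30 did not pass (limma, adjusted p = 0.086). Of 6 tested Kupffer cell genes 1 was lower in liver at 18 h, Vsig4, a complement receptor (-0.88), and none was higher. Of 3 tested cholangiocyte genes and 7 tested genes of brain endothelium and pericytes none passed in liver at 18 h. In brain at 3 h none of the 8 tested microglia genes passed, and 1 of 10 neuron genes did, Slc17a6, a vesicular glutamate transporter also held by the thalamus list (1.04). Of the 5 tested genes that mark astrocytes of single brain regions none passed at either brain time.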
